A study of Mus musculus with 6 samples.

Results

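The 9 genes described here encode the lipases that release fatty acids inside and outside the cell and the proteins that take fatty acids up and carry them: *Lipg*, *Lpl*, *Lipa*, *Lipe*, *Pnpla2*, *Mgll*, *Fabp4*, *Fabp5* and *Cd36*. They were found by symbol in a count table of 25701 genes, and all 9 were among the 13485 genes that passed the filter on low counts. The set was chosen with its difference between the groups in view, so the levels and differences of these genes are given as descriptions. How many of them were called is stated below, and nothing is read from it. *Lipg* and *Fabp5* showed the largest differences of the set: the mean level in MCT2 KO was 2.25-fold that in MCT2 CO for *Lipg* and 2.1-fold for *Fabp5* on the scale of the fit. In *Fabp5*, every MCT2 KO mouse lay above every MCT2 CO mouse. In *Lipg*, a single MCT2 KO mouse, replicate 2, was at the control level. The other 7 genes had smaller differences, and in each of them the groups overlapped.

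RNA was sequenced in bulk from CD11b+ cells that had been collected with magnetic beads from collagenase-digested tumors, in 2 groups of 3 mice, MCT2 CO and MCT2 KO. All were young male mice on a C57BL/6 background that carried MCT2 loxP/loxP alleles together with mCre-Tg, an inducible Cre. From 8 weeks of age, tamoxifen was given to the MCT2 KO mice for 5 days at a daily dose of 180 µg per g, and vehicle to the MCT2 CO mice, so the deletion cannot be told apart from exposure to tamoxifen and activation of Cre. The deletion was systemic and not restricted to macrophages. After 2 days, 100000 TC1 cells were injected under the skin of the lower right flank, and tumors were taken at 24 days. TC1 is a mouse lung epithelial tumor line, and MCT2 was not targeted in it. The sample records name the tissue as lung and the cells as purified macrophages. In tissue that holds several cell types, fewer cells of a type and less RNA per cell cannot be told apart, and the errors below measure the spread between these samples.

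Total counts ranged from 24863611 to 31713704. The targeted gene, *Slc16a7*, which encodes the pyruvate and lactate transporter MCT2, was at 16.04, 11.04 and 11.21 CPM (counts scaled to library size after TMM normalization) in MCT2 CO replicates 1 to 3. In MCT2 KO replicates 1 to 3 it was at 8.22, 4.97 and 5.34 CPM, with no overlap of the groups. Macrophage and monocyte markers summed to between 5841 and 10910 CPM in every sample. CD11b itself (*Itgam*) had 1 count over the 6 samples, and nearly all of its exonic sequence is inside the span of another listed gene. Genes were called where the adjusted p was 0.05 or less and the log2 fold change 0.58 or more in size. By edgeR's quasi-likelihood test 0 genes were called, which is 0% of those tested, while 1264 had an unadjusted p under 0.05 (509 of them higher in MCT2 KO and 755 lower). limma-voom also called 0 genes, and DESeq2, run without the filter, called 83, or 0.448% of the genes with a count. Of the 9 genes, edgeR called 0 and DESeq2 called 1, *Fabp5*. These counts come from the contrast on which the set was chosen, and nothing is read from them.

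Triglyceride reaches a macrophage by several routes, and each route has its own lipase. Lipoprotein lipase and endothelial lipase act outside the cell on circulating lipoproteins, lysosomal acid lipase degrades lipid that has been engulfed, and a relay of cytosolic enzymes takes triglyceride of lipid droplets apart step by step, releasing a fatty acid at each step. CD36 at the cell surface takes up long-chain fatty acids and oxidized lipoproteins, and the small FABP proteins carry fatty acids through the cytosol. Macrophages, adipocytes and capillary endothelium all use parts of this machinery, and *Cd36* and *Fabp4* are known from all of these cell types.

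RefSeq promoters on GRCm38.p6, running from 250 bases before to 50 bases after the start site, are given for *Lipa*, *Lipe*, *Pnpla2*, *Mgll* and *Cd36*. They are shown because these genes fall into groups by the mice in which they were highest, as given further on. Promoters of the other genes of the set, *Lipg* among them, are not reported here. In each, capitals mark the motifs that were searched on both strands. The E-box was searched as CACGTG. The half-site of nuclear receptors was searched as AGGTCA. The TATA motif was searched as TATAAA. The GC box was searched as GGGCGG, and the remaining motif is known by its letters, CCAAT. Windows come first for genes that were highest in MCT2 KO replicate 2 and MCT2 CO replicate 3, a group that also holds *Fabp4*. They are those of *Cd36* at chr5:17835847-17836146 on the minus strand and *Mgll* (the first of its promoters) at chr6:88724162-88724461 on the plus strand:
Cd36: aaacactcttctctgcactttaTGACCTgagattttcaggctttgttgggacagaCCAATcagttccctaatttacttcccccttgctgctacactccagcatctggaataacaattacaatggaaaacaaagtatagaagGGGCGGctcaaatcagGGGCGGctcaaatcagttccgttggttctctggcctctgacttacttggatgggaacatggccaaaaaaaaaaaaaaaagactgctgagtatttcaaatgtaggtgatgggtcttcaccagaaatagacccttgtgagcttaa
Mgll: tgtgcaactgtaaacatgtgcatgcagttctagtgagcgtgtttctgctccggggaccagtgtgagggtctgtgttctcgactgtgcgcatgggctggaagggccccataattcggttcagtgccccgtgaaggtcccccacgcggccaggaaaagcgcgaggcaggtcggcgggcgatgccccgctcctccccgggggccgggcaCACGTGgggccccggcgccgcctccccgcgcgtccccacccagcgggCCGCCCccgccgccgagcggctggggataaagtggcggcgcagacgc

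Windows follow for genes that were highest in MCT2 KO replicates 1 and 3, a group that also holds *Lipg*. On the minus strand they are those of *Lipa* at chr19:34527425-34527724 and *Lipe* (the first of its promoters) at chr7:25395938-25396237. That of *Pnpla2* is at chr7:141454938-141455237 on the plus strand:
Lipa: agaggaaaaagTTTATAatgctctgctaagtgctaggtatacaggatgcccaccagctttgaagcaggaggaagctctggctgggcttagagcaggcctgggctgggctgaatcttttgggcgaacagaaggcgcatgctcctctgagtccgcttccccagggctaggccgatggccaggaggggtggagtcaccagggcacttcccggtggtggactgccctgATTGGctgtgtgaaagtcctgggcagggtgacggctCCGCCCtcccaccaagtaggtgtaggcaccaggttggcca
Lipe: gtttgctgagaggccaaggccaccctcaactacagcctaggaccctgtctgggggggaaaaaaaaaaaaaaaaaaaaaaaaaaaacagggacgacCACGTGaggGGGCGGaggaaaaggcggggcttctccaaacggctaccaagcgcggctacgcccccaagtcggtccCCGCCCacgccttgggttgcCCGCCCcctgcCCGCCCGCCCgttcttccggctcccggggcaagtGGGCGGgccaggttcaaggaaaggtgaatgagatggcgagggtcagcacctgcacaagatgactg
Pnpla2: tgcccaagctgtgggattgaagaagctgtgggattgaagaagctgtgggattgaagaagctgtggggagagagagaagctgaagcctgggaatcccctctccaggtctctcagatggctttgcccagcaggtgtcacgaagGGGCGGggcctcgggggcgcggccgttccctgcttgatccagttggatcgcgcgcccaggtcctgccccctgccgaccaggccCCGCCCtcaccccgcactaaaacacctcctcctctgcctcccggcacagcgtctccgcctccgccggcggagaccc

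The GC box was the motif that all 5 of these windows held. The second promoter of *Lipe*, not shown, held 0 matches to any of the motifs, and the second of *Mgll* held 1 GC box. It was found in 35.7% of 32851 promoters of the same length, and the *Lipe* window alone had 6 matches, of which a pair overlap. The E-box was found in the *Lipe* and *Mgll* windows, one from each group of genes, and in 7.15% of all promoters. CCAAT was found in the *Lipa* and *Cd36* windows and in 37.4% of all promoters. The TATA motif was found in the *Lipa* window alone, 239 bases before the start site, and in 13.6% of all promoters. The nuclear receptor half-site was found in the *Cd36* window alone, 228 bases before the start site, and in 16.3% of all promoters. A pair of half-sites with a single base between them, the arrangement known as DR1, was found in none of these windows and in 0.0396% of all promoters. The *Cd36* window had 43.0% G and C and the other windows 59.3% to 70.0%, against a median of 52.7% over all promoters. These matches are letters in a window and were not measured as binding sites.

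*Lipg* encodes endothelial lipase, a secreted enzyme that acts mainly on the phospholipids of high-density lipoprotein, and is located on chromosome 18 of GRCm38, minus strand, from 74939322 to 74961263. Its level was 8.91, 8.96 and 8.54 CPM in MCT2 CO replicates 1 to 3 and 23.3, 8.56 and 27.8 CPM in MCT2 KO replicates 1 to 3. The controls were almost level with one another, MCT2 KO replicates 1 and 3 stood well above them, and MCT2 KO replicate 2 lay within their range. In counts, that sample had 279 reads of *Lipg*, where MCT2 KO replicates 1 and 3 had 555 and 693. Means over the mice of a group were 8.80 ± 0.228 CPM for MCT2 CO (SD, n = 3) and 19.9 ± 10.1 CPM for MCT2 KO (SD, n = 3). The SD was 2.59% of the mean in MCT2 CO and 50.6% of it in MCT2 KO. The log2 fold change of *Lipg* was 1.17 (standard error 0.37), which placed it at rank 50 of the 13485 genes tested. Without MCT2 KO replicate 2 it was 1.54, and without MCT2 KO replicate 3 it was 0.85.

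*Lpl* encodes lipoprotein lipase, which releases fatty acids from the triglyceride of circulating lipoproteins, and is located on chromosome 8, plus strand, from 68880491 to 68907448. It showed the opposite picture to *Lipg*, with level MCT2 KO mice and unequal controls. Its level was 20.6, 10.2 and 10.6 CPM in MCT2 CO replicates 1 to 3 and 20.0, 19.7 and 18.8 CPM in MCT2 KO replicates 1 to 3. MCT2 CO replicate 1 had the highest value of all 6 samples, and the other controls had the lowest. The SD was 42.7% of the mean in MCT2 CO and 3.05% of it in MCT2 KO. The means were 13.8 ± 5.89 CPM (SD, n = 3) and 19.5 ± 0.595 (SD, n = 3), and the log2 fold change was 0.50 (standard error 0.26). It was 0.91 without MCT2 CO replicate 1 and 0.32 without MCT2 CO replicate 2. Of the *Lpl* transcripts, 1.4% of stretches of 50 bases also occur in 351 other genes, which had 1532779 counts over the 6 samples, so a small part of its reads is uncertain.

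*Lipa* encodes lysosomal acid lipase, which frees cholesterol and fatty acids from the lipids that a macrophage engulfs. It is located on chromosome 19, minus strand, from 34492318 to 34527474 and had the most counts of the set, between 1824 and 2645 per sample. Its level was 88.2, 77.1 and 68.6 CPM in MCT2 CO replicates 1 to 3 and 108, 78.3 and 104 CPM in MCT2 KO replicates 1 to 3. MCT2 KO replicates 1 and 3 were above every control, and MCT2 KO replicate 2 was between MCT2 CO replicates 1 and 2. The means were 78.0 ± 9.83 CPM (SD, n = 3) and 96.9 ± 16.3 (SD, n = 3). The log2 fold change came to 0.31, standard error 0.14. *Lipa* made up between 30.6% and 38.9% of the summed CPM of the 9 genes in each sample. That sum was 227, 210 and 199 CPM in MCT2 CO replicates 1 to 3 and 311, 256 and 293 CPM in MCT2 KO replicates 1 to 3.

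The cytosolic relay begins with *Pnpla2*, which encodes adipose triglyceride lipase and is found on chromosome 7, plus strand, from 141455198 to 141460743. Its level was 48.2, 51.1 and 44.0 CPM in MCT2 CO replicates 1 to 3 and 65.0, 45.9 and 57.8 CPM in MCT2 KO replicates 1 to 3. The means were 47.8 ± 3.59 CPM (SD, n = 3) and 56.3 ± 9.65 (SD, n = 3), and the log2 fold change was 0.24 (standard error 0.13). MCT2 KO replicate 2 again lay among the controls, below MCT2 CO replicates 1 and 2. Without that mouse the log2 fold change was 0.36, and without MCT2 KO replicate 1 it was 0.13.

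*Lipe*, which encodes hormone-sensitive lipase and takes the next step on diglyceride, is found on the same chromosome, minus strand, from 25379527 to 25398710. Its level was 29.8, 33.3 and 30.8 CPM in MCT2 CO replicates 1 to 3 and 40.0, 24.7 and 39.5 CPM in MCT2 KO replicates 1 to 3. MCT2 KO replicate 2 was the lowest of all 6 samples, whereas the other MCT2 KO mice were the highest. With means of 31.3 ± 1.81 CPM (SD, n = 3) and 34.7 ± 8.67 (SD, n = 3), the log2 fold change of 0.15 was smaller than its standard error of 0.18. It was 0.35 without MCT2 KO replicate 2, and 0.04 and 0.05 without MCT2 KO replicates 1 and 3. Of the *Lipe* transcripts, 10.8% of stretches of 50 bases also occur in *4732471J01Rik*, which had 0 counts, so the sharing of reads between these genes is uncertain.

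*Mgll* encodes monoglyceride lipase, the last enzyme of the relay, and is found on chromosome 6, plus strand, from 88724412 to 88828360. It was the least abundant of the set, with counts of 36, 37 and 90 for MCT2 CO replicates 1 to 3 and of 49, 128 and 53 for MCT2 KO replicates 1 to 3. These gave 1.20, 1.42 and 3.39 CPM in MCT2 CO and 2.05, 3.93 and 2.13 CPM in MCT2 KO, in the same order. MCT2 KO replicate 2, the mouse in which *Lipe* was lowest, had the highest *Mgll*, followed by MCT2 CO replicate 3. The means were 2.00 ± 1.20 CPM (SD, n = 3) and 2.7 ± 1.06 (SD, n = 3), and the log2 fold change of 0.45 was about as large as its standard error of 0.44. It was 0.07 without MCT2 KO replicate 2 and 1.06 without MCT2 CO replicate 3, and 0.18 and 0.26 without MCT2 CO replicates 1 and 2.

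*Cd36* encodes the fatty acid translocase and scavenger receptor CD36 and is found on chromosome 5, minus strand, from 17781690 to 17888801. Its level was 4.54, 5.35 and 9.56 CPM in MCT2 CO replicates 1 to 3 and 9.43, 12.9 and 7.91 CPM in MCT2 KO replicates 1 to 3. MCT2 CO replicate 3 was above MCT2 KO replicates 1 and 3, and the other controls were below every MCT2 KO mouse. The means were 6.48 ± 2.7 CPM (SD, n = 3) and 10.1 ± 2.57 (SD, n = 3). The log2 fold change came to 0.64, standard error 0.30. It was 0.42 without MCT2 KO replicate 2 and 1.03 without MCT2 CO replicate 3.

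*Fabp4*, the fatty acid binding protein best known from adipocytes and macrophages, lies on the minus strand of chromosome 3 from 10204088 to 10208576. Its level was 3.27, 2.88 and 7.79 CPM in MCT2 CO replicates 1 to 3 and 4.65, 9.67 and 4.58 CPM in MCT2 KO replicates 1 to 3. MCT2 KO replicate 2 and MCT2 CO replicate 3 stood apart from the other mice of their own groups. The means were 4.65 ± 2.73 CPM (SD, n = 3) and 6.30 ± 2.92 (SD, n = 3). Its log2 fold change with all mice was 0.45 (standard error 0.44). It was -0.0057 without MCT2 KO replicate 2 and 1.04 without MCT2 CO replicate 3, so 1 mouse set the sign of the difference in *Fabp4*. It was 0.25 and 0.20 without MCT2 CO replicates 1 and 2.

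*Fabp5*, the epidermal fatty acid binding protein that macrophages also make, lies near *Fabp4* on the plus strand of chromosome 3 from 10012548 to 10016607. Its level was 22.2, 19.3 and 15.9 CPM in MCT2 CO replicates 1 to 3 and 38.5, 51.8 and 29.8 CPM in MCT2 KO replicates 1 to 3. The lowest MCT2 KO mouse was above the highest control, and MCT2 KO replicate 2 was here the highest of all. The means were 19.1 ± 3.14 CPM (SD, n = 3) and 40.0 ± 11.1 (SD, n = 3). The log2 fold change was 1.07 (standard error 0.21), at rank 66 of the genes tested, and it stayed between 0.84 and 1.25 with each mouse left out in turn. Of the *Fabp5* transcripts, 5.48% of stretches of 50 bases also occur in 5 other genes, *Gm6166*, *Gm14328* and *Fabp5l2* among them, which had 0 counts.

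**Figure D1:**
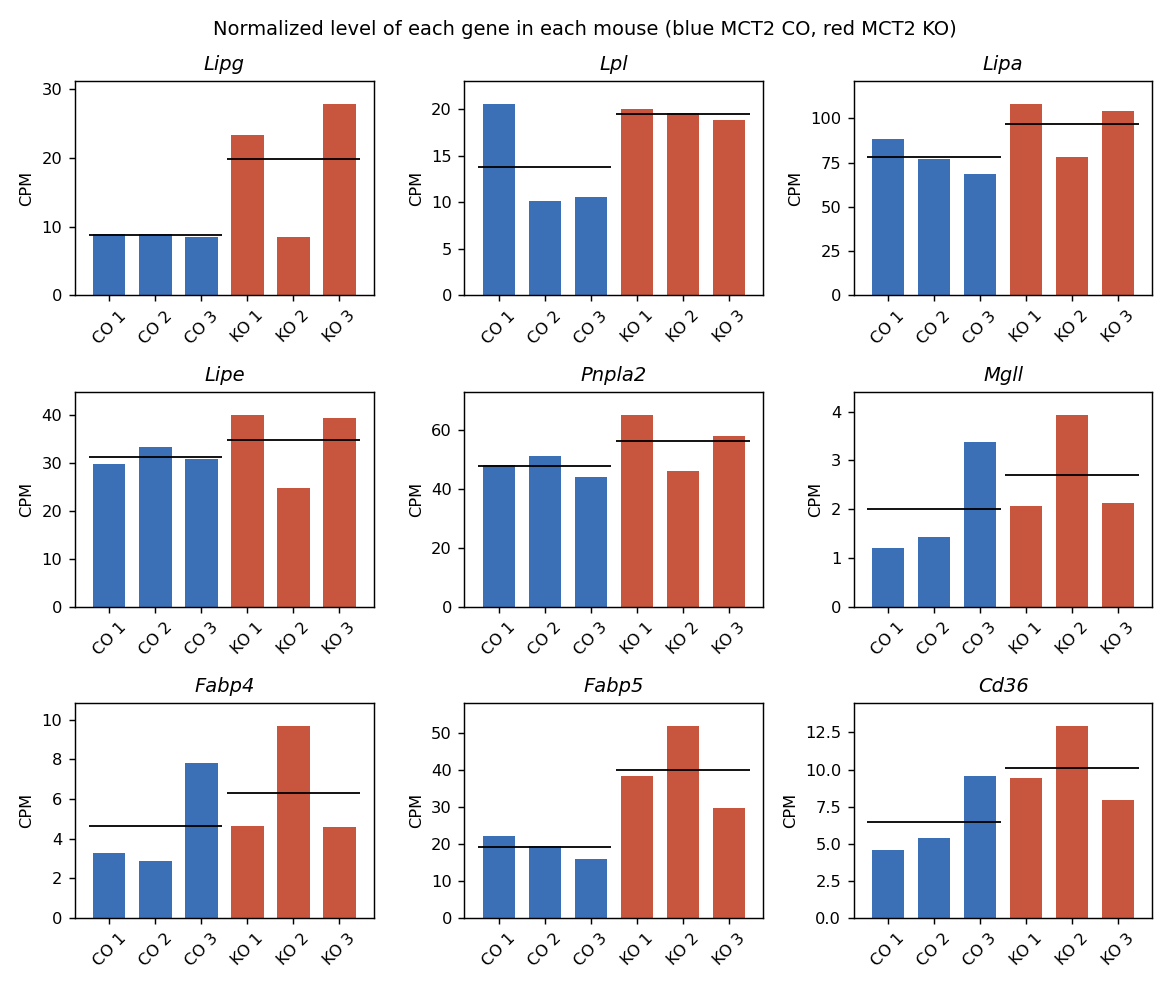
Level of each of the 9 genes in each mouse, in CPM after TMM normalization on an axis that starts at 0, with blue bars for MCT2 CO, red bars for MCT2 KO and a black line at each group's mean (n = 3). Only in *Fabp5* are all red bars above all blue bars, and MCT2 KO replicate 2 is at the control level in *Lipg* but the highest sample in *Mgll*, *Fabp4*, *Fabp5* and *Cd36*.

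The fitted log2 fold change was above 0 in all 9 genes with every mouse included, where 50.1% of the genes tested were above 0 and the median log2 fold change of all genes tested was 0.00037. The number above 0 was 8 without MCT2 KO replicate 2, in which *Fabp4* was the exception. All 3 MCT2 KO mice were above all 3 controls in 1 of the 9 genes (11.1%), beside 7.07% of the genes tested, and below them in 0 of the 9, beside 8.77%. Leaving out MCT2 KO replicate 2 left the groups apart in 5 of the 9, *Lipg*, *Lipa*, *Lipe*, *Pnpla2* and *Fabp5*, beside 15.4% of the genes tested. Leaving out MCT2 CO replicate 3 left them apart in 4, *Mgll*, *Fabp4*, *Fabp5* and *Cd36*, beside 10.5%. Leaving out MCT2 CO replicate 1 left them apart in 3, *Lpl*, *Lipa* and *Fabp5*, beside 13.2%. The set was chosen on this contrast, and nothing is read from these counts.

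**Figure D2:**
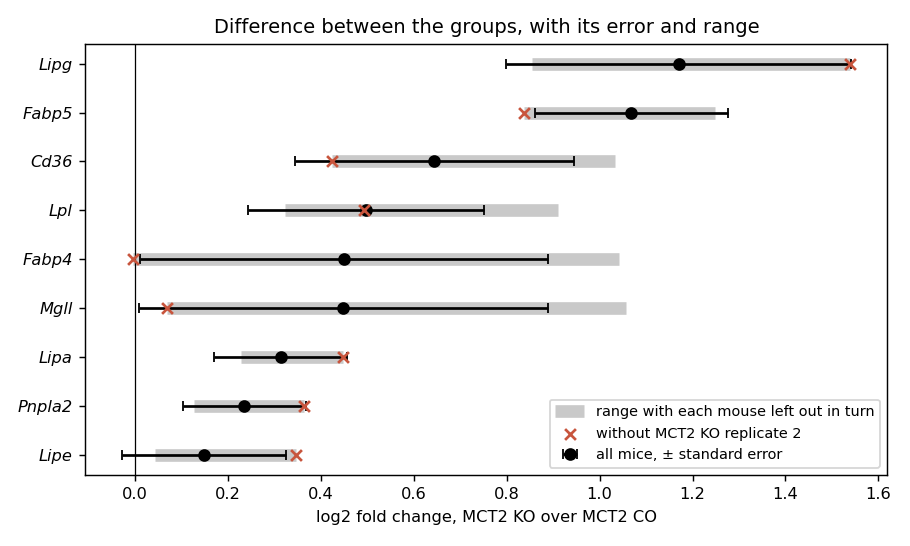
Log2 fold change of MCT2 KO over MCT2 CO for each gene (black points, bars ± standard error), with the range over fits that leave out each mouse in turn (grey) and the value without MCT2 KO replicate 2 (red crosses). Leaving out that mouse moved *Lipg* up to 1.54 and *Fabp4* down to -0.0057.

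Levels were also taken per kilobase of exon, with exon length as the union over all annotated transcripts. That length was 4489 bases for *Fabp4*, its whole span, and 3567 of the 4060 bases spanned by *Fabp5*. Reads in introns may also be counted, so the order between genes is a rough one. On this scale *Pnpla2* was the highest at a mean of 17.2 CPM per kb over the 6 samples. It was followed by *Lipa* at 12.9, *Fabp5* at 8.29 and *Lipe* at 5.61 CPM per kb, and then by *Lipg* at 3.04, *Cd36* at 2.31, *Lpl* at 1.59, *Fabp4* at 1.22 and *Mgll* at 0.464 CPM per kb. By this measure, the enzymes of lysosomal and cytosolic lipolysis, apart from *Mgll*, were among the more abundant of the set. *Pnpla2* was at the 76.1th percentile of the genes tested and *Mgll* at the 11.1th. Each neighbouring pair in this order overlapped in its range over the 6 samples. Within a sample, *Pnpla2* was above *Lipa*, *Lipe* above *Lipg* and *Fabp4* above *Mgll* in 6 of 6 samples, and the other neighbouring pairs kept their order in 4 or 5 of 6.

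The order of the samples divided the set. MCT2 KO replicate 2 and MCT2 CO replicate 3 were the highest pair of samples in *Mgll*, *Fabp4* and *Cd36*, an order that 12.1% of the genes tested also showed. MCT2 KO replicates 1 and 3 were the highest pair in *Lipg*, *Lipa*, *Lipe* and *Pnpla2*, an order shown by 10.6% of the genes tested. *Fabp5* and *Lpl* followed neither order.

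Markers of other cell types shared part of these orders. Of the 10 endothelial markers, 6 had MCT2 KO replicate 2 and MCT2 CO replicate 3 as their highest pair, as *Mgll*, *Fabp4* and *Cd36* did. These were *Cdh5*, *Tie1*, *Emcn*, *Cldn5*, *Esam* and *Egfl7*. Of the exons of *Egfl7*, 84.2% lie inside the spans of other genes, and *Cldn5* had 94 counts over the 6 samples. *Cdh5*, the cadherin of endothelial junctions, had 11.8, 15.5 and 21.1 CPM in MCT2 CO replicates 1 to 3 and 19.2, 24.7 and 20.5 CPM in MCT2 KO replicates 1 to 3. The remaining endothelial markers did not share that order: the most abundant of them, *Pecam1*, which leukocytes also express, and *Kdr* were lowest in MCT2 KO replicate 2, at 33.1 and 15.8 CPM. The summed endothelial list, in which *Pecam1* is the largest part, ranged from 100 to 108 CPM in MCT2 CO and from 95.4 to 146 CPM in MCT2 KO. The same pair was highest in 4 of 10 fibroblast markers, *Col1a1*, *Pdgfra*, *Fbln1* and *Postn*, and in 3 of 6 tested skeletal muscle markers, *Acta1*, *Ckm* and *Myh4*. The remaining fibroblast markers did not share that order: *Col3a1*, the most abundant of the list, and *Dcn* were lowest in MCT2 KO replicate 2, at 804.5 and 14.7 CPM. The summed levels ranged from 2262 to 3632 CPM in MCT2 CO and from 2003 to 2141 CPM in MCT2 KO for fibroblast markers, and from 4.73 to 9.90 and from 3.78 to 8.53 CPM for muscle markers. The part of these markers in the levels of *Mgll*, *Fabp4* and *Cd36* was not tested.

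*Lpl*, *Lipe*, *Fabp4* and *Cd36* are also abundant in fat, and adipocyte markers were near 0 in every sample. All 10 had a mean under 1 CPM over the 6 samples, and their sum ranged from 2.00 to 2.86 CPM in MCT2 CO and from 1.09 to 2.73 CPM in MCT2 KO. The adipocyte hormone gene *Adipoq* had 13 counts over the 6 samples, and *Plin1*, the coat protein of fat cell droplets, had 14. In MCT2 KO replicate 2, where *Fabp4* was highest, *Adipoq*, *Plin1* and *Lep* had 0 counts, whereas *Thrsp* was highest of the 6 samples there, at 0.184 CPM. *Plin1* was also at 0 in MCT2 KO replicate 1, and *Lep* had 2 counts over the 6 samples. In MCT2 CO replicate 3, the next highest for *Fabp4*, *Adipoq* was at its highest, 0.226 CPM, and so was the summed list, at 2.86 CPM. The part of these markers in the levels was not tested.

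Of the 13 macrophage and monocyte markers tested, 5 had MCT2 KO replicates 1 and 3 as their highest pair, as *Lipg*, *Lipa*, *Lipe* and *Pnpla2* did: *Adgre1*, *Cd68*, *Fcgr1*, *C1qa* and *C1qb*. The other tested markers of this list did not share that order. *Lyz2*, the most abundant, was highest in MCT2 KO replicates 1 and 2, at 1972 and 1873 CPM. *Mertk* was highest in MCT2 KO replicate 2, at 240 CPM. In other lists, *Pecam1*, *Csf3r*, *Xcr1*, *Trbc2* and *Ighm* also had MCT2 KO replicates 1 and 3 as their highest pair. Over the whole macrophage and monocyte list, 12 of the 13 had a log2 fold change above 0, as all 9 lipase and uptake genes did. *C1qa*, a complement gene of tissue macrophages, had 1326, 1144 and 949 CPM in MCT2 CO replicates 1 to 3 and 1863, 995 and 1405 CPM in MCT2 KO replicates 1 to 3. The summed list ranged from 5841 to 7743 CPM in MCT2 CO and from 6836 to 10910 CPM in MCT2 KO, highest in MCT2 KO replicate 1. MCT2 KO replicate 2 had the lowest sum of dendritic cell, T cell and B cell markers. Its B cell sum was 23.8 CPM, where the other 5 samples had 78.9 to 110 CPM, and its T cell sum was 13.1 CPM, where they had 40.7 to 85.8 CPM. The dendritic cell list ranged from 58.1 to 68.2 CPM in MCT2 CO and from 35.3 to 78.3 CPM in MCT2 KO. The neutrophil list ranged from 83.3 to 103 and from 69.6 to 186 CPM, and 7 of its 8 tested markers had a log2 fold change above 0. Its sum was lowest in MCT2 KO replicate 2 through *Csf3r*, its most abundant member, at 41.1 CPM there. The granule and calcium-binding genes *S100a9*, *S100a8*, *Ngp*, *Ltf*, *Retnlg* and *Mmp8* were above every control in every MCT2 KO mouse. *S100a9* had 20.9, 9.12 and 7.63 CPM in MCT2 KO replicates 1 to 3, where the controls had 2.58 to 4.18 CPM. Epithelial markers ranged from 14.0 to 21.1 CPM in MCT2 CO and from 18.8 to 33.6 CPM in MCT2 KO, nearly all of it *Cdh1*, with *Nkx2-1* at 0 counts. The part of these lists in the lipase levels was not tested.

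**Figure D3:**
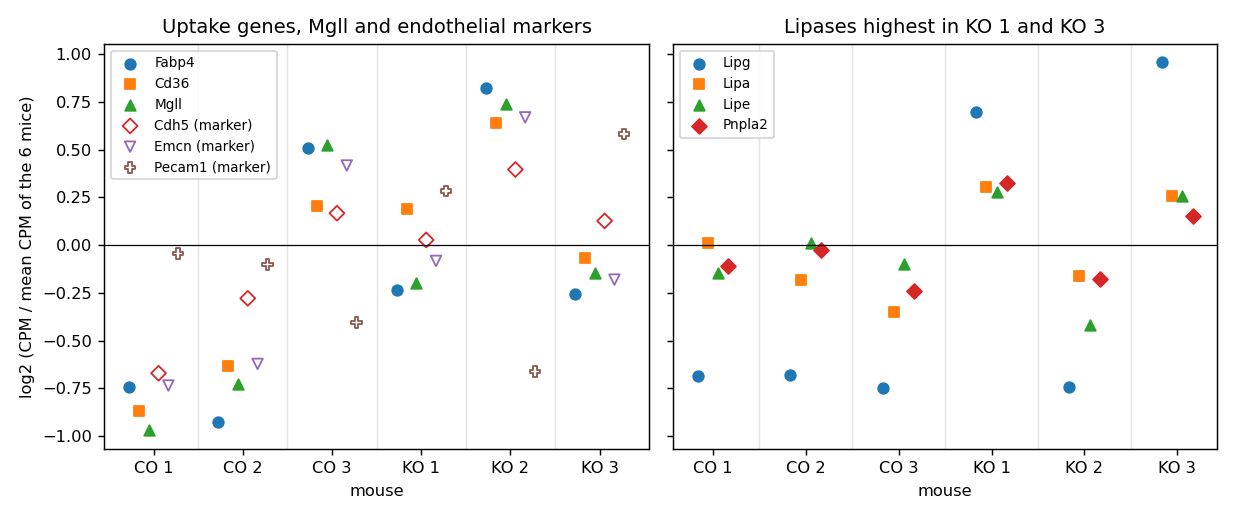
Level of single genes in each mouse as the log2 of its CPM over the mean CPM of the 6 mice, with filled symbols for lipase and uptake genes and open symbols for endothelial markers. *Fabp4*, *Cd36*, *Mgll* and *Emcn* are highest in MCT2 KO replicate 2 and MCT2 CO replicate 3, whereas *Pecam1* is lowest there, and *Lipg*, *Lipa*, *Lipe* and *Pnpla2* are highest in MCT2 KO replicates 1 and 3.

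For each gene of the set, the tested gene whose log2 CPM followed it most closely over the 6 samples was taken by Pearson's r, as a description of libraries that share their depth and make-up. *Mgll* was followed most closely by the endothelial marker *Emcn* (r = 0.994), and *Cd36* by *Sparcl1* (r = 0.992). *Emcn* had 1.07, 1.15 and 2.37 CPM in MCT2 CO replicates 1 to 3 and 1.68, 2.82 and 1.57 CPM in MCT2 KO replicates 1 to 3. *Lipg* was followed by *Oas1c* (r = 0.988), *Lpl* by *B230219D22Rik* (r = 0.986), *Lipa* by *Marchf2* (r = 0.999), *Lipe* by *Sik1* (r = 0.995), *Pnpla2* by *Tns3* (r = 0.999), *Fabp4* by *2410004P03Rik* (r = 0.989) and *Fabp5* by *Elp2* (r = 0.991). With 6 samples such values are easily reached: between 25 and 134 genes had an r over 0.95 with each gene of the set.

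The enzymes and carriers work with many partners, and 169 further genes of lipid handling in 6 lists were looked up, of which 168 were found by symbol and 124 tested. By edgeR, 0 of the 124 were called in either direction (smallest adjusted p 0.37), and 14 had an unadjusted p under 0.05. The log2 fold change was above 0 in 73 and below 0 in 51, with a median of 0.04. All MCT2 KO mice were above all controls in 16 of the 124 (12.9%, beside 7.07% of all genes tested) and below them in 6 (4.84%, beside 8.77%). DESeq2, which called 0.448% of all genes with a count, called 1 of them, *Gnas*, at a lower level in MCT2 KO.

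Among 21 tested cofactors and regulators of the lipases, 14 were higher and 7 lower in MCT2 KO, with a median log2 fold change of 0.12 (0.08 without MCT2 CO replicate 3) and 0 calls. The 3 with the smallest unadjusted p were *Hilpda*, *Angptl4* and *Lrpap1*. *Hilpda*, an inhibitor of the lipase that *Pnpla2* encodes, had 13.2, 14.8 and 15.9 CPM in MCT2 CO replicates 1 to 3 and 18.9, 31.6 and 20.9 CPM in MCT2 KO replicates 1 to 3, with no overlap (log2 fold change 0.70, standard error 0.19, edgeR adjusted p = 0.424). *Angptl4*, an inhibitor of lipoprotein lipase, had 53.9, 52.6 and 50.5 CPM in MCT2 CO and 51.7, 110 and 83.2 CPM in MCT2 KO (log2 fold change 0.64, standard error 0.23, edgeR adjusted p = 0.488). Both inhibitors were thus highest in MCT2 KO replicate 2, the mouse in which *Lipe* was lowest and *Fabp5* highest. *Lrpap1*, a chaperone of the lipoprotein receptor family, had a log2 fold change of 0.19, with a standard error of 0.08.

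Further partners were picked by role after their values had been seen. *Abhd5*, the coactivator of adipose triglyceride lipase, had means of 74.7 ± 1.00 CPM in the controls (SD, n = 3) and 71.7 ± 2.74 CPM after deletion (SD, n = 3), with overlapping groups. *Lmf1*, which matures lipoprotein lipase and endothelial lipase in the endoplasmic reticulum, had means of 15.7 ± 2.36 and 19.0 ± 1.19 CPM, in the same order. *Gpihbp1*, which anchors lipoprotein lipase on capillary endothelium, had 1.70 ± 0.65 and 2.14 ± 0.588 CPM. Of the 44 listed genes that were not tested, 11 had 0 counts in every sample. *G0s2*, *Apoc2* and *Agpat2* were among these, with more than 99% of their exons inside the spans of other genes, so their 0 counts do not show that they are not transcribed.

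Among 21 other lipases and lipid hydrolases, 18 were higher and 3 lower in MCT2 KO, with a median log2 fold change of 0.14 and 0 calls. *Nceh1*, a cholesteryl ester hydrolase of macrophages, had 55.4, 52.8 and 45.6 CPM in MCT2 CO replicates 1 to 3 and 87.8, 69.4 and 64.5 CPM in MCT2 KO replicates 1 to 3, with no overlap (log2 fold change 0.53, standard error 0.13, edgeR adjusted p = 0.383). *Pla2g7*, the phospholipase that circulates with lipoproteins, was also without overlap, at means of 179 ± 37.8 CPM (SD, n = 3) for MCT2 CO and 271 ± 45.4 CPM (SD, n = 3) for MCT2 KO. *Ddhd1*, an intracellular phospholipase, had a log2 fold change of 0.23, with a standard error of 0.10.

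Of 22 uptake and activation genes, 14 were higher and 8 lower, with 0 calls. Their median of 0.08 was 0.05 without MCT2 KO replicate 1 and 0.0028 without MCT2 KO replicate 3. The scavenger receptor gene *Msr1* averaged 184 ± 50.1 CPM for MCT2 CO (SD, n = 3) and 300 ± 78.8 CPM for MCT2 KO (SD, n = 3) and, like *Cd36* and *Fabp5*, was highest in MCT2 KO replicate 2, at 368 CPM. *Crabp2*, a binding protein for retinoic acid of the same family as the FABP genes, was lower in every MCT2 KO mouse than in any control, at means of 2.42 ± 1.21 CPM in the controls and 1.11 ± 0.154 CPM after deletion (log2 fold change -1.11, standard error 0.37, edgeR adjusted p = 0.444). *Slc27a6*, a fatty acid transport protein, averaged 0.623 CPM in the controls and 1.04 CPM after deletion.

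Of 21 genes for lipid droplet coats and triglyceride synthesis, 12 were higher and 9 lower, with 0 calls. Their median of 0.07 was 0.12 without MCT2 KO replicate 2 and 0.03 without MCT2 CO replicate 2. *Plin2*, the droplet coat protein of macrophages, had 219, 226 and 184 CPM in MCT2 CO replicates 1 to 3 and 248, 263 and 341 CPM in MCT2 KO replicates 1 to 3, with no overlap (log2 fold change 0.44, standard error 0.14, edgeR adjusted p = 0.438). *Lpin1*, which makes diglyceride, had a log2 fold change of 0.35 with a standard error of 0.10, and that of *Soat1*, which esterifies cholesterol, was 0.32 with a standard error of 0.12. In both, every MCT2 KO mouse was above every control.

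Of 19 receptor and kinase genes for the control of lipolysis, 7 were higher and 12 lower, with 0 calls by edgeR. Their median of -0.03 turned to 0.0074 without MCT2 CO replicate 3 and was -0.09 and -0.04 without MCT2 CO replicates 1 and 2. *Gnas*, the stimulatory G protein subunit upstream of cyclic AMP, had 26.2, 16.3 and 17.7 CPM in MCT2 CO replicates 1 to 3 and 12.4, 8.75 and 8.64 CPM in MCT2 KO replicates 1 to 3 (log2 fold change -1.02, standard error 0.22, edgeR adjusted p = 0.370). DESeq2 called it, with an adjusted p of 0.00692, and 22.2% of its exons lie inside the spans of other genes. *Irs2* and *Pde3b*, both of the insulin arm that restrains lipolysis, had log2 fold changes of -0.39 (standard error 0.19) and -0.12 (standard error 0.09).

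Of 20 transcription factors and coregulators, 8 were higher and 12 lower, with 0 calls. Their median of -0.05 turned to 0.05 without MCT2 KO replicate 2, and it was -0.09 without MCT2 CO replicate 3 or MCT2 KO replicate 1, -0.07 without MCT2 CO replicate 1, and -0.02 without MCT2 CO replicate 2 or MCT2 KO replicate 3. The 3 with the smallest unadjusted p were *Cebpd*, *Cebpb* and *Klf4*, at log2 fold changes of -0.65, -0.55 and -0.47 (edgeR adjusted p from 0.426 to 0.554). Parts of *Cebpd* and *Cebpb*, 48.3% and 60.4% of their exons, lie inside the spans of other genes. *Pparg*, the receptor that drives *Cd36* and *Fabp4* in many cells, was picked by role after its values had been seen. It had 15.01, 10.54 and 7.49 CPM in MCT2 CO replicates 1 to 3 and 15.6, 4.42 and 16.3 CPM in MCT2 KO replicates 1 to 3. It was lowest in the mouse in which *Cd36* and *Fabp4* were highest. Receptor activity was not measured, and the part of *Pparg* in these levels was not tested.

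**Figure D4:**
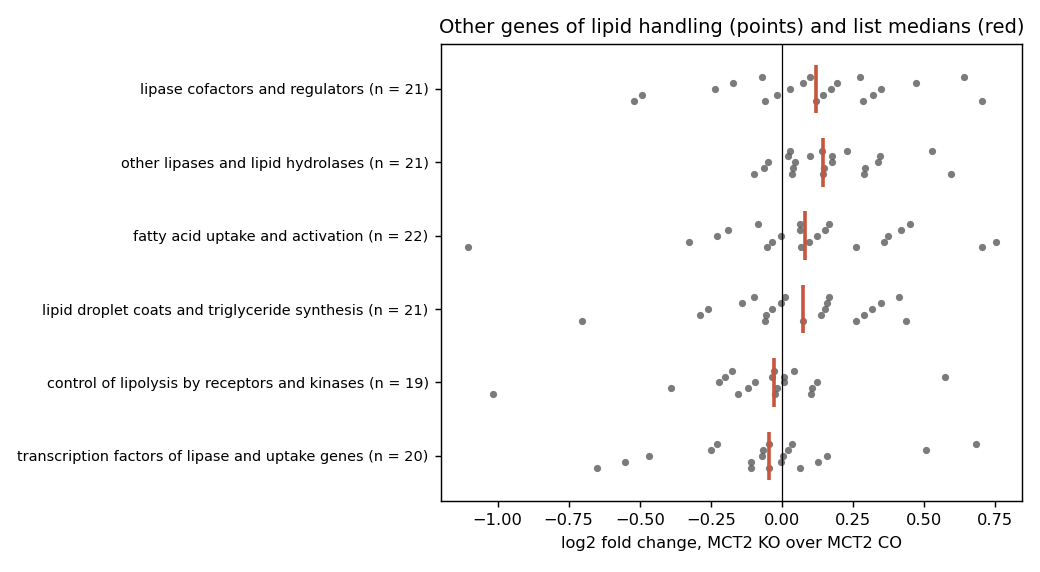
Log2 fold change of MCT2 KO over MCT2 CO for each tested gene of the 6 lists (grey points, spread vertically for legibility) and the median of each list (red lines). The medians lie between -0.05 and 0.14 with all mice, and 0 of these 124 genes were called by edgeR.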

How the data were processed

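The deposited table holds raw counts per gene without normalization, which the authors made with STAR 2.7.11b (genome GRCm38) and featureCounts 2.1.1. The annotation and strand setting of the counting are not given in the sources used here, and Ensembl identifiers were looked up in GENCODE M21 (GRCm38) for gene positions. The gene lengths in the deposited table equal the whole span, introns included, for all 9 genes, so reads in introns may be counted. All count columns matched a sample title.

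Counts were analysed in R 4.3.3 with edgeR 4.0.16 (filterByExpr with minimum count 10 and minimum total count 15, TMM, quasi-likelihood test without covariates, Benjamini-Hochberg adjustment over all genes tested). CPM are TMM-normalized, and log2 CPM used a prior count of 2. Log2 fold changes are those that edgeR reports. Each standard error is the size of the log2 fold change divided by the square root of its quasi-likelihood F statistic. The dispersion behind that statistic is estimated partly from other genes. The procedure was run on counts simulated from the fitted means and dispersions, with changed genes put in. That run checks the procedure and says nothing of the differences reported here. Groups were taken from the sample titles. Alternatives were DESeq2 1.42.0, limma-voom (limma 3.58.1), other normalizations, filters and thresholds, a replicate block and fits that left out each mouse.

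The genes and lists were chosen with earlier results of these data known. Besides the 9 genes and *Slc16a7*, the text names the 3 genes of each pathway list with the smallest unadjusted edgeR p and any called gene, the most alike gene of each of the 9, and of each marker list up to 3 of the most abundant, with further genes named where a result turned on them after their values had been seen. Counting error matters at these depths mainly for *Mgll* among the 9 genes.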

Additional observations from a re-analysis of the deposited data

How the results depend on the processing

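The number of genes called in the whole table was 0 with edgeR, 79 with DESeq2 on the same genes (34 higher, 45 lower), 83 with DESeq2 run without the filter (33 higher, 50 lower) and 2 with edgeR without the filter on low counts. With each mouse left out in turn it ranged from 0 to 2, the 2 being without MCT2 KO replicate 2. Of the pathway genes, 0 were called by edgeR and 1, *Gnas*, by DESeq2 with either filter. The other normalizations, the minimum of 1 CPM in 3 samples, the other thresholds and limma-voom gave 0 calls. The number of the 9 genes whose groups did not overlap ranged from 1 to 5 with each mouse left out, being 3 without MCT2 CO replicate 1, 4 without MCT2 CO replicate 3 and 5 without MCT2 KO replicate 2. Leaving out single mice moved the log2 fold change by more than 1.5 times in *Lpl* (0.91 without MCT2 CO replicate 1), *Lipe*, *Pnpla2*, *Mgll*, *Fabp4* and *Cd36*, whose values stand beside each gene above, and turned its sign in *Fabp4* (-0.0057 without MCT2 KO replicate 2). Under all other alternatives the 9 log2 fold changes kept their direction.

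The replicate numbers did not pair the samples: deviations of samples with the same number correlated at 0.249, -0.335 and -0.254, and of the controls only replicate 1 correlated best with its own number. With the replicate number as a block, edgeR called 0 genes, all 9 fold changes stayed above 0, and those of *Lipg* and *Fabp5* were 1.03 and 1.04. The cause of the differences between the tests was not tested. *Mgll* had the fewest counts of the 9 genes, 36 to 128 per sample.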
